A study of Mus musculus with 5 samples.

Results

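Constitutive sites with many entries were those annotated transcription start sites that held 4 or more entries in every one of 5 accessibility libraries. An entry is a line of a library's list of open intervals that overlaps the site, a reading inferred from the values, and a site with 1 or more entries is called covered. The members were therefore chosen by the measured values themselves, so their high levels and their presence in all libraries describe the selection and are not findings. The rule selected 743 of 34714 sites (2.14%). Member sites at most 500 bp apart were joined, which gave 276 regions. All sites of the table, joined separately in the same way, gave 9217 regions, a ratio of 2.99%. They carried 266 of 8034 gene symbols.

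The libraries came from ATAC-seq, in which a transposase inserts sequencing adapters into open chromatin, on nuclei of C17.2 cells. C17.2 is an established line of multipotent neural stem cells of the mouse, with CD1 x C57BL/6 given as its strain. The 0 h library is the control, from cells grown in DMEM/F12 with fetal bovine serum. The others were taken 0.5, 1, 1.5 and 2 h after a change to Knockout DMEM with GlutaMAX and N2 supplement, which induces neural differentiation, and the label "Neural induction" stands on all 5, the control included. There was 1 library per time, so no difference between times has a replicate check and no test was run. Read depth was unknown. The libraries held 42527, 56773, 45254, 65824 and 59437 entries over all sites at 0, 0.5, 1, 1.5 and 2 h, and 3408, 5207, 3293, 6051 and 4585 sites with 4 or more. The cell type could be checked on few defining markers: of 11 neural progenitor markers 6 were in the table and 2 of these, Hes1 and Cdh2, were covered in all 5 libraries, while Pax6 and Msi1 were listed at 0 in each and Nes held entries at 1.5 h only. Of markers of other cells, 2 of 6 neuronal, 4 of 6 oligodendrocyte lineage, 1 of 5 mesenchymal, 1 of 4 blood and microglial and 1 of 5 endothelial and epithelial ones were in the table, and none of 5 astrocyte ones. Among these, Map2 and Cx3cr1 held 2 in each library, Pdgfra held 4, 4, 3, 4 and 3 and Twist1 2, 3, 3, 6 and 4. The neuronal Rbfox3, the oligodendrocyte lineage genes Olig1, Olig2 and Mbp, and Epcam were listed at 0 in each. Some markers of other cell types were thus covered and others were not. None of the 15 markers in the table had a member site.

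Promoters of active genes are depleted of nucleosomes around the start site, and many mammalian promoters lie in CpG islands, stretches rich in unmethylated CpG that stay open in most cell types. Such promoters hold sites for broadly expressed factors of the Sp/KLF and ETS families and for the CCAAT-binding factor NF-Y. Immediate early genes, which serum and growth factors switch on without new protein synthesis, often have promoters that are open before induction.

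The promoters of 4 members are shown to give the sequence beside sites that stayed at 4 or more entries. The member site nearest the start was centred 20 bp from it for Flii, 3 bp for Basp1, 2 bp for Lbh and 5 bp for Mex3b, in each case just downstream of the bases printed. Each is the 250 bases before the annotated start, from RefSeq on build GRCm38.p6, written 5′ to 3′ on the gene's strand, with matches to the motifs named further on in capitals. Flii, Basp1 and Lbh were among the 12 regions with the highest minimum over the libraries, and Mex3b lay in a region shared with a gene of the opposite strand. Flii is at chr11:60727264-60727513 on the minus strand, Basp1 at chr15:25413765-25414014 on the minus strand, Lbh at chr17:72918055-72918304 on the plus strand and Mex3b at chr7:82867083-82867332 on the plus strand.
Flii: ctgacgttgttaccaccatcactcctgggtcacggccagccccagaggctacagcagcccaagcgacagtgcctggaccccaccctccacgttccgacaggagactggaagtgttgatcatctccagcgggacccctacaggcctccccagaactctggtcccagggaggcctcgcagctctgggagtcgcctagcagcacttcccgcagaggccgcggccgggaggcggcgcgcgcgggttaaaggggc
Basp1: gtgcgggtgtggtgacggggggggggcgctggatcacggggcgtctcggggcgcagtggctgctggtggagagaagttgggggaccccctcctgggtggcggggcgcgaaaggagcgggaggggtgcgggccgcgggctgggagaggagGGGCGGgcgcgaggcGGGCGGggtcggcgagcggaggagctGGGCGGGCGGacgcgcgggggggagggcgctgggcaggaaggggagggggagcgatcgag
Lbh: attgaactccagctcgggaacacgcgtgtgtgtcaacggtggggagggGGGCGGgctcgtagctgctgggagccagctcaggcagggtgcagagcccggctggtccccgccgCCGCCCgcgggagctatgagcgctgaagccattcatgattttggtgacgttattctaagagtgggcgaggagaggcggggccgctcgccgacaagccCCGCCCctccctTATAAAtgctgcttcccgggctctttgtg
Mex3b: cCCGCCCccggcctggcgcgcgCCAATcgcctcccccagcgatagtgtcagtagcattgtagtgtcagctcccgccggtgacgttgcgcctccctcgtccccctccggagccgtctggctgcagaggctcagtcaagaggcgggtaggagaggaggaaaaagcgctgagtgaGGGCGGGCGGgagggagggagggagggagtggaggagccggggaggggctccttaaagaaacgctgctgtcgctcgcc
The Basp1 window held 4 matches to the Sp/KLF hexamer and no other motif searched, at a GC content of 78.8%. Lbh held 3 Sp/KLF matches and 1 TATA box, the latter 29 to 24 bases before the start. Mex3b held 3 Sp/KLF matches and 1 CCAAT box. In Flii none of the motifs was found, which says only that these letters are not in this window.

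The members with the most entries lay at or shortly before a ribosomal RNA pseudogene. Sites carrying CT010467.1 (ENSMUSG00000106106), with 1 unnamed site before them, held 9, 9, 10, 8 and 9 entries at 0, 0.5, 1, 1.5 and 2 h in 3 regions from position 39844250 to 39846617 of chromosome 17. The last of these regions overlaps the RefSeq pseudogene Rn18s-rs5, a copy related to the 18S ribosomal RNA. Only 5 of the 13 sites with this symbol were members. Ribosomal RNA genes exist in many near-identical copies, so these values are uncertain for this locus, and no source used here says how reads with several alignments were treated.

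Among single genes the highest was Cdk6 (ENSMUSG00000040274), a cyclin-dependent kinase that drives entry into S phase. Its region at chr5:3344168-3344311, 3167 bp inside the gene, held 8, 8, 7, 8 and 6 entries in time order. Flii (ENSMUSG00000002812), an actin-binding protein of the gelsolin family and a nuclear receptor co-activator, held 6, 8, 7, 8 and 6 at a site 20 bp from its 5′ end. Basp1 (ENSMUSG00000045763), a membrane protein abundant in growing axons, held 8, 6, 6, 9 and 6 over 3 sites across its start. The first of these was lowest at 2 h, the Flii site was lowest at both ends of the series, and Basp1 was high in the 0 h and 1.5 h libraries only.

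The next regions were nearly level. The ephrin receptor Epha4 and Sap30, a subunit of the Sin3 histone deacetylase complex, each held 6, 6, 6, 7 and 6 entries. Gm23119, a small guide RNA gene on chromosome 18, had the same 5 values. Lbh, a transcriptional cofactor first studied in limb and heart, held 6, 7, 6, 6 and 6. Lurap1l and Socs2 held 6 in each library, and Socs2 encodes a cytokine-signalling suppressor. In these 6 regions no library departed from the others by more than 1 entry. Level values of 5 in each library were held by Zfp524, a zinc finger gene, by Ppp1r13l, an inhibitor of p53, and by Tpgs1, a subunit of the tubulin polyglutamylase complex.

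**Figure D1:**
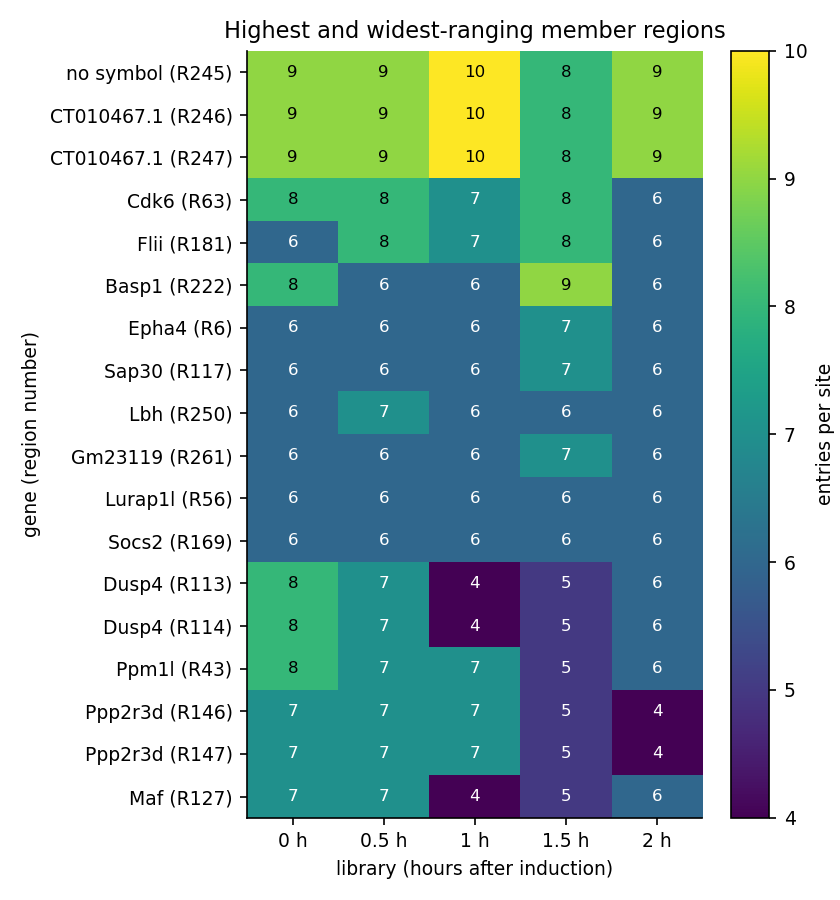
Entries per site (colour and printed number, 4 to 10) in the 12 member regions with the highest minimum and in regions with the widest range, of which Basp1 belongs to both, with libraries on the horizontal axis and gene symbol and region number on the vertical axis. The regions of CT010467.1 and the unnamed site before them stand at 8 to 10 throughout, and Dusp4 runs from 8 at 0 h to 4 at 1 h.

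Most members lay at the bottom of the allowed range. The lowest of a region's 5 values was 4 in 220 of 276 regions (79.7%), 5 in 44 and 6 or more in 12. Just inside the threshold, 54 regions held exactly 4 in every library, among them Egr1, an immediate early transcription factor, Sox9, which maintains neural stem cells, and the co-repressor gene Ncor1. Just outside it, 1076 sites reached 4 in all libraries but 1, and 630 of these held 3 in that library. The library that failed was 0 h for 491 sites and 2 h for 217. It was the 1 h library for 195, that of 1.5 h for 94 and that of 0.5 h for 79. The nearest misses by mean included Kansl1l with 3, 7, 7, 8 and 5 and the Wnt effector Lef1 with 7, 3, 7, 7 and 5. Among them too, a site of Limd1, a gene that also had member sites, held 2, 6, 7, 7 and 7. The chaperone gene Hsp90ab1 held 7, 6, 3, 6 and 6. A further site of Flii inside the gene, at chr11:60726977-60726980, held 0, 8, 7, 8 and 6, so that the same gene stood on both sides of the rule.

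**Figure D2:**
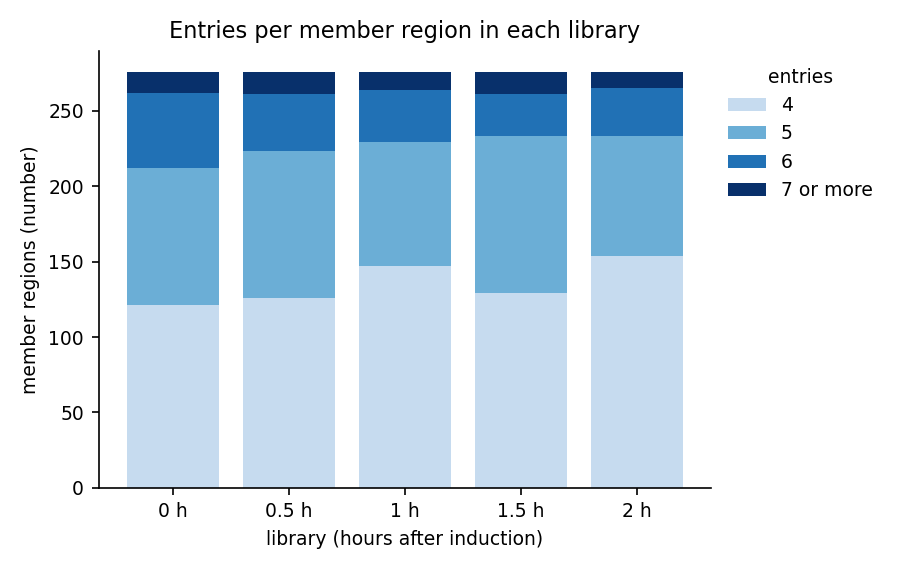
Number of the 276 member regions (vertical axis) at 4, 5, 6 and 7 or more entries (colours) in each of the 5 libraries (horizontal axis, hours after induction). Regions at 4 are the most frequent class in each library, from 121 at 0 h to 154 at 2 h.

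Values within a region were identical. All 166 regions with more than 1 member site had 1 set of 5 values shared by all their sites, and the 26 pairs of regions lying within 2000 bp of each other also matched in all 5 libraries. The members are thus fewer independent places than sites: 110 regions had 1 site, 120 had 2 to 4 and 46 had 5 or more. The most sites in a region were 11, at Phyhipl with 4, 5, 4, 4 and 4 entries and at the shared start of Sec62, a subunit of the protein translocation channel, and 4933429H19Rik with 4 in each. Eri1, an exoribonuclease that trims histone messenger RNA ends, had 10 sites at 5, 4, 4, 4 and 4. The longest region, 1039 bp at chr10:116581138-116582176, joined Cnot2, a subunit of the CCR4-NOT deadenylase, with 5330438D12Rik, and held 5, 5, 4, 5 and 4. Cisd2, an iron-sulfur protein of mitochondria and endoplasmic reticulum, had 9 sites at 6, 5, 4, 5 and 4, and Ss18, a subunit of the BAF remodelling complex, 9 at 5, 6, 5, 5 and 6. Pigp, an enzyme of GPI anchor synthesis, spanned 809 bp at 5, 6, 6, 5 and 5, and Epc2, a subunit of the NuA4 acetyltransferase, 769 bp at 5, 5, 6, 5 and 4. None of these 4 varied by more than 2 entries. The 9 sites without a symbol at chr4:133813464-133814312, inside the RefSeq gene Gm34296, held 5, 6, 5, 5 and 5.

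Most member genes had no other kind of site. All listed sites were members in 217 of the 266 genes, and 85 genes had a single site. Of the 583 further sites of member genes, 387 carried the doubtful symbol Galnt2l, which is spread over an implausibly long stretch of chromosome 8. Among the other 196, 113 sites in 27 genes lay over 1000 bp from a member site. Of those 113, 53 were listed at 0 in every library, 24 were covered in some and 36 in all. By RefSeq class, 226 of 7036 protein-coding genes were members (3.21%) and 21 of 425 long non-coding RNA genes (4.94%). The latter included Gt(ROSA)26Sor, the locus widely used to host transgenes for its open chromatin, with 4 in each library, and Junos, transcribed beside the AP-1 gene Jun, with 6, 6, 5, 5 and 5.

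Sites with many entries shared their value over longer distances than sites with few. For all sites of the table and all libraries pooled, pairs 800 to 1000 bp apart held equal values in 11.2% of 3111 pairs when 1 site had 1 entry, in 55.3% of 2262 pairs at 4 entries, in 88.7% of 1225 pairs at 5 and in 94% of 753 pairs at 6 or more. At 1400 to 1600 bp these shares were 8.21%, 17.1%, 37.3% and 79.1%. At 2 and 3 entries the shares were 24.3 and 33.3% at 800 to 1000 bp and 13.6 and 6.64% at 1400 to 1600 bp. At the longer distance 4 entries thus stood near 2. Members were not counted apart, and they were 12.3 to 22.6% of the sites with 4 or more entries in a library. Pairs of 1 stretch are not independent, and the class of 6 or more held 129 pairs at the longest distance. The shares are given as a description with no test.

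**Figure D3:**
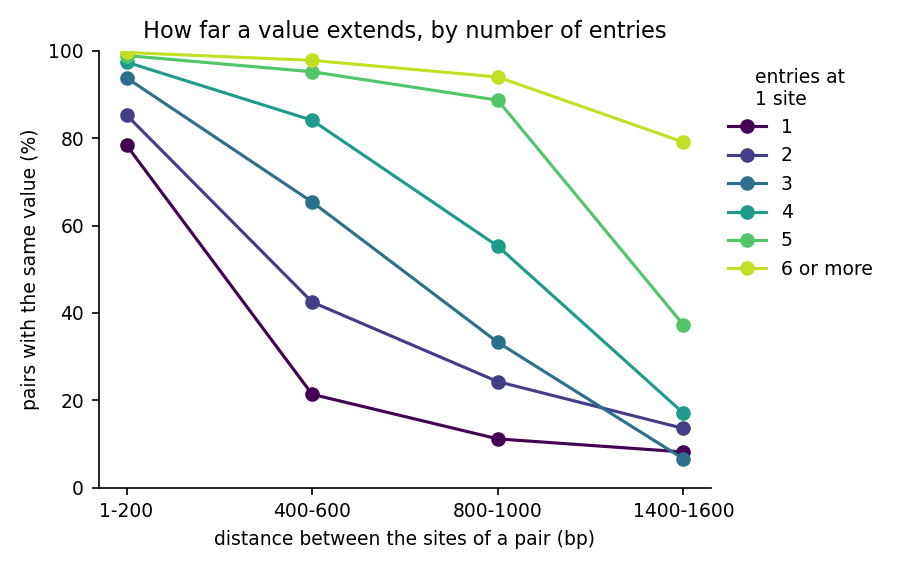
Percent of site pairs with the same value (vertical axis) against the distance between the sites in bp (horizontal axis, 4 classes), with 1 line per number of entries at 1 site of the pair, over all sites and all 5 libraries. At 800 to 1000 bp the lines run from 11.2% for 1 entry to 94% for 6 or more.

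Sites beside members were mostly either at 0 or at 4 or more entries. There were 76 sites that were not members within 500 bp of a member site, and 52, 39, 49, 25 and 29 of them were listed at 0 at 0, 0.5, 1, 1.5 and 2 h. Of the rest, 18, 32, 15, 51 and 46 held 4 or more and 6, 5, 12, 0 and 1 held 1 to 3, so values in between were most frequent at 1 h. Covered neighbours numbered 24, 37, 27, 51 and 47 in time order, which is 31.6% of them at 0 h and 67.1% at 1.5 h. Among sites not covered in all 5 libraries, the share was 17.5, 38.1, 22.2, 60.3 and 54% beside members (63 sites) and 8.24, 50.3, 27.4, 72.7 and 69.6% beside other sites covered in all 5 libraries (6346 sites). Both sets of shares followed the order of the libraries' total entries, lowest at 0 h and highest at 1.5 h, and the part of depth in them was not tested.

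Values at the members differed by few entries between libraries. Regions had a mean of 4.89, 4.82, 4.71, 4.77 and 4.66 entries at 0, 0.5, 1, 1.5 and 2 h. Equal values in all libraries were held by 64 regions, and 137 differed by 1 entry between their highest and lowest library, 59 by 2 and 16 by 3 or more. The range was at most 1 entry in 72.8% of member regions and in 54.4% of the 14544 other sites covered in all 5 libraries, a contrast that the floor of 4 entries shapes. Member sites held 8.46, 6.31, 7.74, 5.3 and 5.78% of all entries in time order, so their share was lowest where the library total was highest.

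Because the rule set a floor at 4, only the 64 regions with 6 or more entries at 0 h could lie 2 or more lower later, whereas all 276 could lie higher, and the counts that follow are read with that limit and support nothing about direction. Shares over all sites are given first and those over all 9217 regions, joined in the same way, after them. At 0.5 h 5 of 276 regions held at least 2 entries more than at 0 h, where 14.9% of all sites and 9.31% of all regions did, and 11 held at least 2 fewer, where 2.71% and 3.42% did. At 1 h the members counted 4 higher, against 7.61% and 5.06%, and 21 lower, against 5.02% and 6.18%. At 1.5 h they counted 8 higher, against 23.5% and 12.2%, and 18 lower, against 3.73% and 4.17%. At 2 h they counted 11 higher, against 20.3% and 9.62%, and 24 lower, against 5.15% and 6.14%. Values at 0 h entered both the rule and these differences, so nothing is read from the contrast with the table.

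The widest range belonged to Dusp4 (ENSMUSG00000031530), a nuclear phosphatase that inactivates MAP kinases. Its 2 regions at chr8:34806967-34807081 and chr8:34807871-34807876, on either side of the 5′ end, each held 8, 7, 4, 5 and 6 entries. The value was highest at 0 h and lowest at 1 h. Maf, a basic leucine zipper transcription factor, held 7, 7, 4, 5 and 6, with the same lowest library. Ppm1l, a protein phosphatase, held 8, 7, 7, 5 and 6 at its start. A pair of regions named Ppp2r3d held 7, 7, 7, 5 and 4, but they lay 53480 and 52470 bp from that gene's 5′ end and overlapped other RefSeq genes, so the name is uncertain.

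Several regions held more entries in later libraries. Limd1, a scaffold protein that restrains LATS kinases in Hippo signalling, held 5, 6, 7, 7 and 7. Utrn, the dystrophin-related protein utrophin, held 5, 7, 7, 6 and 7. The closely spaced starts of Tsr1, a ribosome biogenesis factor, and Sgsm2 shared 4, 6, 4, 6 and 7, low in the 0 h and 1 h libraries. Smad1, which carries BMP signals to the nucleus, held 5, 6, 4, 6 and 7. Jmy, an actin nucleator and p53 cofactor, held 4 in the first 4 libraries and 7 at 2 h, and the sialyltransferase gene St3gal4 held 4, 4, 5, 4 and 7. Sh3pxd2a, an organiser of podosomes, held 4, 5, 4, 7 and 6, 150405 bp downstream of its 5′ end. With 1 library per time, a step of 2 or 3 entries in such a region has no measured error.

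Distance from gene starts, which the rule did not use, was much the same for member sites as for the table. Of 660 member sites with a measured distance, 73.6% were within 1000 bp of the 5′ end of their gene (Wilson 95% interval 70.1 to 76.9%, which covers counting error over sites and not their sharing of stretches). The share was 73% for all sites, 80.4% for the other sites covered in all 5 libraries, 74.3% for sites covered in 1 to 4 and 61.1% for sites covered in none. Within 250 bp lay 38.5% of member sites and 52.3% of the other always-covered sites, and the median distance was 307 and 186 bp, beside 317 bp for all sites. Counted once per region, 71.3% of member regions and 71% of all regions were within 1000 bp. The share of sites that were members varied from 1.53 to 4.65% over the classes of distance, without a maximum at the start itself, where 2.33% of sites just before it and 1.83% just after it were members.

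**Figure D4:**
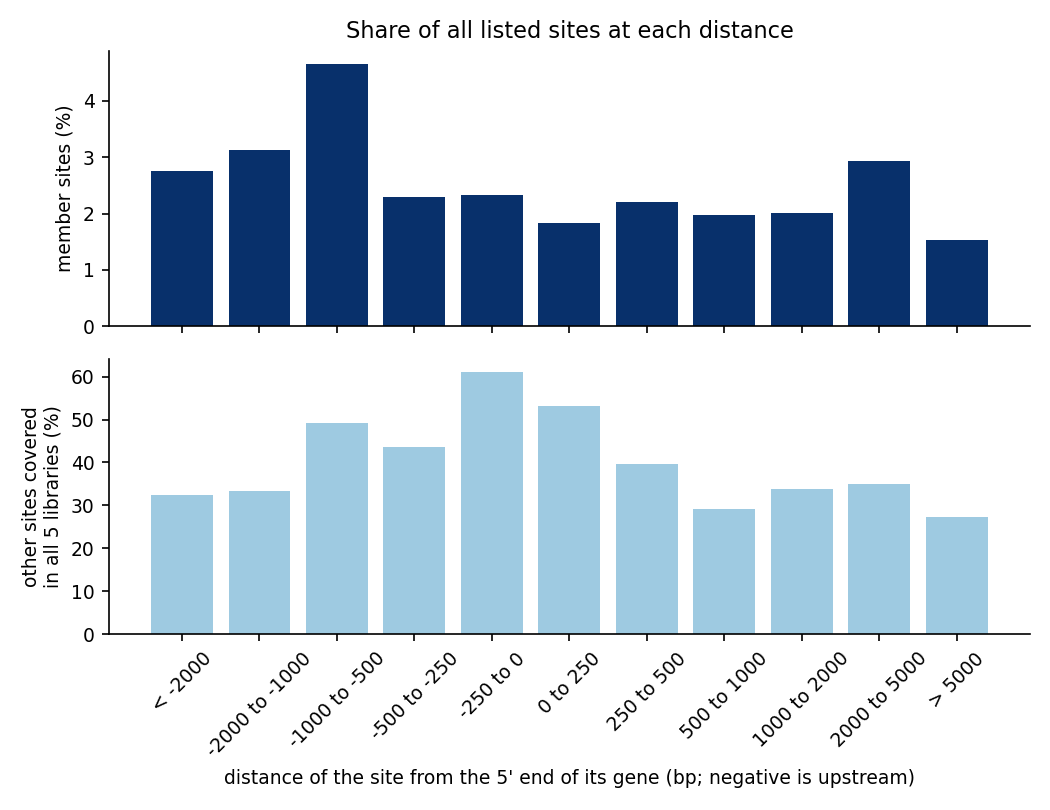
Percent of all listed sites that were members (upper panel) or other sites covered in all 5 libraries (lower panel) by signed distance from the 5′ end of the gene in bp (horizontal axis, negative is upstream). Other covered sites reach 61.1% in the 250 bp before the start, while members peak at 4.65% between 1000 and 500 bp upstream, a class with 12 member sites.

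Some members lay far from the 5′ end of their gene. Auts2, a chromatin regulator linked to neurodevelopment, held 7, 6, 6, 6 and 5 entries 1004600 bp from its annotated start. Tenm3, a teneurin that guides synaptic wiring, held 6, 5, 5, 4 and 5 at 679635 bp. Ptprn2, a dense-core vesicle protein, held 6, 6, 6, 4 and 5 at 668128 bp. Aff1, a scaffold of the super elongation complex, held 5, 5, 6, 6 and 6 at 61472 bp. Auts2 and Tenm3 held their most entries at 0 h, Ptprn2 in the first 3 libraries, and Aff1 held its fewest at 0 and 0.5 h. In all, 77 member sites (11.7%) were over 5000 bp from the 5′ end, beside 9.61% of other always-covered sites and 14.6% of all sites. The 77 include sites whose symbol is uncertain. The 4 sites named B230369F24Rik were measured at 178147562 bp and overlapped the RefSeq gene Cox20. The 4 named Smyd1, the first of them at 9277 bp, lay in a region that overlapped Krcc1. The sources used here gave gene extents only, so exon or intron was not assigned.

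Regions shared by 2 genes of opposite strand made up 15 of 276 (5.43%), beside 350 of 9217 in the table (3.8%). Such pairs included Sptbn1, a spectrin, with Gm8098 at 7, 6, 6, 7 and 5 entries. Nudt6 and Spata5 shared 5 in each library. Mex3b, an RNA-binding protein, and Gm36584 shared 6, 4, 4, 5 and 5. Yap1, the co-activator that Hippo signalling restrains, and Gm45494 shared 5, 6, 5, 4 and 4. The pair of Nudt6 and Spata5 did not vary between libraries, while the other 3 pairs named varied by 2 entries.

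Promoter sequences of 300 bases, 250 before to 50 after the start, were matched for 196 of 266 member genes. Their median GC content was 65.2% and their median ratio of observed to expected CpG 0.85. That ratio was over 0.6 in 83.2% (Wilson 95% interval 77.3 to 87.8%), compared with 84.1% of all genes of the table with a promoter, 88.9% of genes covered in all 5 libraries without a member site, 82.7% of genes covered in 1 to 4, 65.3% of genes covered in none and 35.8% of all 32817 RefSeq promoters. The members' share was near that of the table as a whole.

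Motifs were searched on both strands, and a match is a description and not a bound site. The Sp/KLF hexamer GGGCGG was in 71.9% of member promoters, 74.9% of the table's promoters, 77.5% of other always-covered ones and 35.6% of all RefSeq promoters, and its matches can overlap each other. The ETS core CCGGAA was in 21.4, 23.8, 28.6 and 14.9% of the same 4 groups. The CCAAT box CCAAT was in 30.1, 34, 35.7 and 37.4%. The E-box CACGTG was in 14.8, 10.5, 11 and 7.15%. The other motifs are given for members, the table's promoters and all RefSeq promoters. TATAAA was in 5.61, 6.79 and 13.6%, GCATGCGC of NRF1 in 4.59, 5.47 and 2.71% and ATGGCGGC of YY1 in 5.1, 5.15 and 2.24%. TGANTCA of AP-1 was in 3.06, 3.78 and 7.81% and TGACGTCA of CREB in 2.04, 3.14 and 1.79%. The CArG box of serum response factor, CC and GG around 6 bases of A or T, was in 2.04, 1.16 and 1.63%. Member promoters held the Sp/KLF, ETS and CCAAT letters in smaller shares than other always-covered promoters and the E-box in a larger one. These are promoters of the named genes, wherever the member site lay. For genes with a site within 250 bp of the start, members and other always-covered genes stood at 79.7 and 82.4% for Sp/KLF and 24.4 and 30.3% for ETS. For the CCAAT box they stood at 30.9 and 36.3%, and for the E-box at 17.1 and 11.8%. These differences were not tested.

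The 266 member genes were 3.31% of the symbols in the table, and gene lists were read against that share. Of 22 lists, 8 had no gene with a member site, although 220 of their 258 measured genes were covered in all 5 libraries. Over all symbols of the table, 5544 of 8034 (69%) were covered in all 5. None of 39 cytosolic ribosomal protein genes was a member, with Rpl14 the closest at 4, 4, 3, 4 and 3 entries, while 37 were covered throughout. None of 22 mitochondrial ribosomal protein genes or 19 respiratory chain genes was a member either, and 21 and 18 were covered throughout. Translation factors (31 genes), DNA repair (30), nuclear pore and transport (37), chromatin remodellers (65) and homeobox clusters (16) were the other lists at 0. The lists do not hold every gene of their class, so a 0 applies to the listed genes only. The remodelling subunit gene Ss18, named above, was a member but was not on the remodeller list. Coverage in all 5 libraries in these lists ran from 53 of 65 remodeller genes to 29 of 30 repair genes, apart from the homeobox genes, of which 1 was covered throughout.

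Chaperone genes had the highest share, 4 of 44. They were Bag6 with 4, 5, 5, 5 and 5 entries, Hspa4l with 5, 5, 5, 5 and 4, the constitutive heat shock cognate Hspa8 with 5, 5, 4, 5 and 4, and Dnajb12 with 4 in each. Cell cycle genes followed with 3 of 35. Beside Cdk6 these were Cdkn2c, an inhibitor of Cdk4 and Cdk6, with 6, 5, 4, 6 and 5 at chr4:109666735-109666739, and Cdkn1b, the inhibitor p27, with 6, 5, 4, 4 and 4. Cdkn1b had its highest value at 0 h, and Cdkn2c was lowest at 1 h. The inhibitor gene Cdkn1a, at 4, 3, 5, 6 and 5, was not a member because of 1 library.

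Immediate early genes had 3 members among 38. Besides Dusp4 these were Dusp1, a nuclear MAP kinase phosphatase, with 5, 5, 5, 4 and 4 entries, and Egr1 with 4 in each. The related Dusp6 held 3, 5, 5, 3 and 2. Splicing factors had 3 of 55, among them the RNA-binding protein gene Hnrnph1 with 5 in each and the core spliceosome gene Snrpb with 4, 5, 4, 5 and 4. Histone-modifying enzymes had 3 of 59, namely the Polycomb subunit Eed with 5, 4, 5, 4 and 4, the demethylase Kdm4c with 4, 5, 4, 4 and 4, and Setd5 with 4 in each. Histone genes had 1 of 38, the linker histone H1f4 with 5, 4, 5, 4 and 4. The proteasome and ubiquitin list had 1 of 52, the 20S subunit Psma7 with 5, 5, 4, 4 and 5. That list is not complete. Of 125 measured genes with ubiquitin in the table's gene description, 2 were members (1.6%). Of 46 measured genes named Rnf, 2 were members (4.35%), Rnf103 and Rnf150, and neither was on the list.

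Neural lists held few members, 6.45% of progenitor genes and 3.57% of proneural and neuronal genes, beside 3.31% of all symbols. Their shares covered in all 5 libraries, 45.2 and 35.7%, were below the 69% of all symbols. Of 31 neural progenitor genes, 14 were covered in all 5 libraries and 2 were members, Sox9 with 4 in each and Rbpj, the DNA-binding partner of Notch, with 4, 4, 4, 5 and 5, 33333 bp downstream of its 5′ end. The neural cadherin Cdh2, at 3, 7, 5, 7 and 5, failed in the 0 h library alone. Of 28 proneural and neuronal genes, 10 were covered throughout and 1 was a member, the neurofilament gene Nefm with 5, 4, 4, 5 and 4. Its site lay 41195 bp from the 5′ end and overlapped no RefSeq gene. The name is thus uncertain, and that list's share rests on it alone. Among general regulators, Klf16 and the NF-Y subunit gene Nfya each held 4, 5, 5, 5 and 5 (2 of 55 promoter-binding factors), and Aff1 and Gtf2i, with 6, 5, 4, 6 and 4, were 2 of 46 genes of general transcription. Rab11a, a recycling endosome GTPase, held 5, 6, 6, 5 and 5, and with Arl1 made 2 of 59 small GTPases. The microtubule genes Clasp1, at 5, 5, 6, 5 and 5, and Cep83, at 4 in each, were 2 of 49. Ldha, lactate dehydrogenase, was the member among 23 glycolysis and TCA genes, with 6, 4, 6, 5 and 5. Across all lists, 30 of 869 measured genes were members (3.45%), a share near the 3.31% of the whole table.

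**Figure D5:**
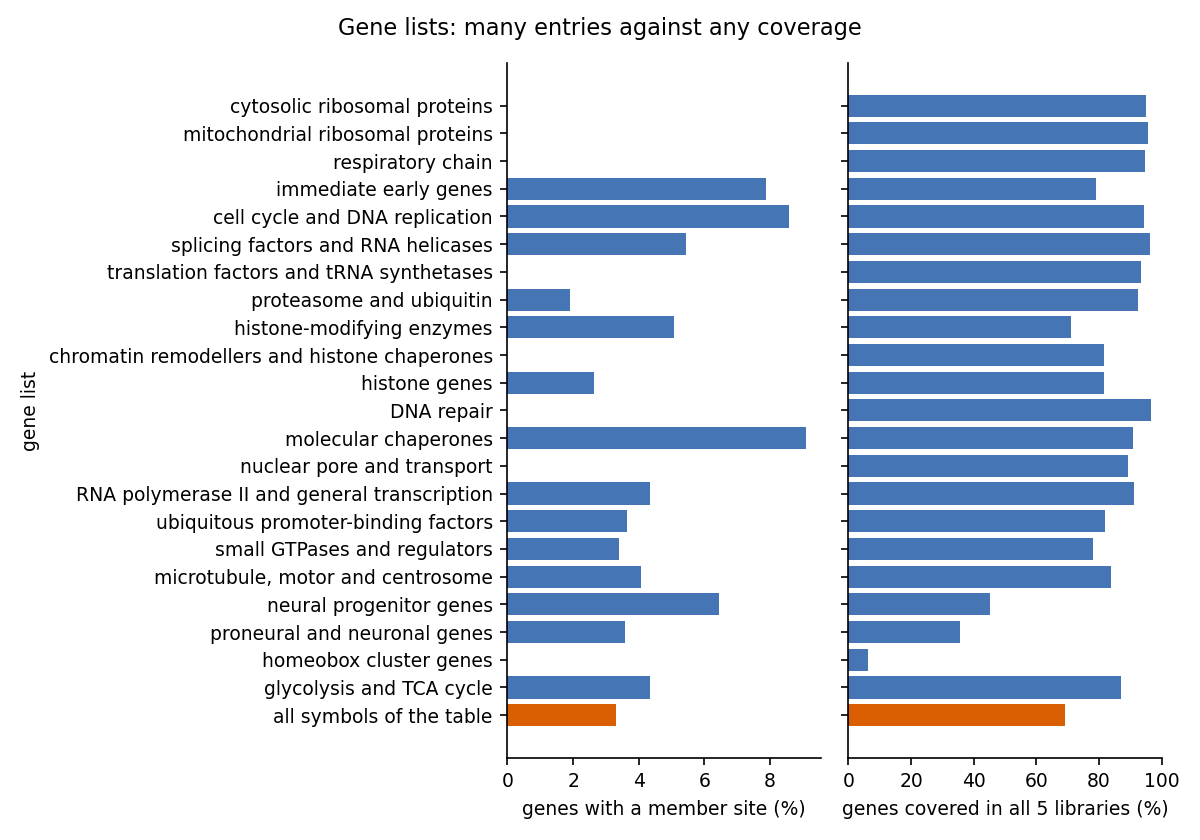
Percent of each list's measured genes with a member site (left) and percent covered in all 5 libraries (right), with gene lists on the vertical axis and all symbols of the table in orange at the bottom. Ribosomal and respiratory lists are at 0% on the left and above 90% on the right. The table as a whole is at 3.31% on the left and 69% on the right.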

How the data were processed

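ATAC-seq libraries of C17.2 cells at 5 times were deposited as 1 table. Per the submitters' processing notes, Bowtie2, MACS2 and deepTools were used with build GRCm38 (mm10). Not given in the sources used here are their versions, settings and order, the peak threshold and the origin of the site list. The authors' deposited values are a score per site and library, whole numbers from 0 to 10 with columns named after BED files per the file headers, read here as overlapping entries. They are neither read counts nor normalised signal, so depth is unknown, no count model was used and no interval on a value can be given.

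Member sites at most 500 bp apart were joined into regions, which take the values of their strongest site. Symbols are the table's, and 249 of 266 member symbols matched the RefSeq gene table of GRCm38.p6, from which distances to the 5′ end were taken. The symbol Galnt2l covers an implausibly long stretch of chromosome 8 and was not named as a result. The genes named are the regions with the highest minimum (12), the widest range (8), the highest equal values (6), the most sites (6) and the longest span (6), those far from the 5′ end (8) or between genes of opposite strand (6), and for each list up to 4 member and 2 other genes. Genes named for later entries, near misses and 4 in every library were chosen after their values were seen. The members, lists and rules were chosen with earlier results of these data known. Groups were single libraries, so no test between times was run. Results for some genes that these rules name are not reported here. Other thresholds, joins and libraries left out were tried. Calculations used Python 3.11.15 with pandas 2.3.3, numpy 2.4.6 and scipy 1.17.1, and were tested on simulated data.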

Additional observations from a re-analysis of the deposited data

How the results depend on the processing

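No paired analysis was possible because each time had 1 library. With 3 or more entries required in each library there were 3441 member sites, 1269 regions and 1261 genes, and with 5 or more 140 sites, 56 regions and 51 genes. Requiring a mean of 4 gave 1683 sites, 540 regions and 531 genes. Without the 0 h library the rule took 1234 sites, the most of any library left out. Joining at 200 bp gave 337 regions and at 1000 bp 253. Leaving out sites at 8 or more entries in each library, an alternative chosen after seeing the data, gave 737 sites, 273 regions and 265 genes. The sites left out were the CT010467.1 members and the unnamed site before them.

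Most counts of regions higher or lower than at 0 h moved with the definition. With 1 entry as the difference, 56, 52, 56 and 42 regions were higher and 68, 77, 76 and 93 lower at 0.5, 1, 1.5 and 2 h. With 3 entries, 0, 0, 1 and 4 were higher and 0, 4, 3 and 3 lower. Over sites in place of regions, 11, 15, 15 and 30 were higher and 23, 53, 53 and 68 lower by 2 or more. After dividing by library means and requiring a 1.5-fold ratio, 0, 2, 1 and 4 were higher and 10, 4, 18 and 17 lower. Within 500 bp of the 5′ end lay 58.9% of member sites. A CpG ratio over 0.6 was found in 92.7% of member promoters with a site within 250 bp of the start. The share was 95.3% for other genes covered in all 5 libraries with a site that near. Over all lists, 170 genes were members at 3 entries and 6 at 5. The single library per time limits all of these, and 0 entries at a site do not show closed chromatin.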

Other observations

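Several members belong to groups that were put together only after their values were seen, so they have no test. Their counts stand beside 3.31% of all symbols, and in a family of few genes 1 or 2 members make a high share. Of other families counted, Klf had 1 member of 12, Rnf 2 of 46 and Tmem 2 of 76. Suppressors of cytokine signalling had 2 members of 6 measured genes, Socs1 with 5 entries in each library and Socs2 with 6 in each, while Socs3 held 2, 3, 3, 2 and 2. Together with Dusp4 and Dusp1 they are feedback inhibitors that their own pathways induce. Nab2, a repressor of Egr1 activity, held 4, 5, 5, 5 and 4, and Cited2, an inhibitor of hypoxia-inducible factor, held 6, 6, 5, 7 and 5. Of the Egr family, Egr1 alone was a member among 4 genes, and Egr2 and Egr3 were listed at 0 in each library.

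Ephrin receptors had 2 members of 8, Epha4 and Ephb6, the latter with 5, 4, 5, 5 and 4, while Epha7 was listed at 0 throughout. Of 33 measured genes with adhesion in the table's gene description, 2 were members (6.06%), beside 3.31% of all symbols. This was the highest share among several words counted. Transmembrane had 7 of 132 (5.3%), receptor 9 of 350 (2.57%) and ribosomal protein 0 of 67. Of single members at the cell surface, Nrcam and Negr1 each held 4, 5, 4, 4 and 4, Cadm2 4 in each library and the glypican gene Gpc6 6, 6, 5, 6 and 6. The RNA decay, import, kinase and co-repressor genes that follow were picked singly, and their groups were not counted. The exosome subunit gene Exosc8 held 6, 4, 6, 4 and 4 and the exoribonuclease gene Xrn2 5, 5, 4, 4 and 4. Of mitochondrial protein import, Tomm20 held 5, 5, 4, 5 and 4 and Timm8a1 5 in each. Of 104 measured genes with mitochondrial in the description, 2 were members (1.92%). The PI3-kinase regulatory subunit gene Pik3r1 held 6, 4, 4, 5 and 4, and the kinase gene Gsk3b 5, 4, 4, 6 and 5. The co-repressor subunit genes Tbl1x and Sap130 held 6, 6, 6, 5 and 7 and 4, 4, 5, 5 and 5. Of 128 solute carrier genes 1 was a member (0.781%, beside 3.31% of all symbols), Slc35f1 at 4, 4, 5, 4 and 5.

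By chromosome, the number of member regions was set against that of all regions, a ratio of 2.99% over the whole table. Both were joined separately, so these are ratios of counts and not parts of a whole. The ratio was 6.44% on chromosome 10 (29 beside 450) and 6.1% on chromosome 16 (15 beside 246). On the other autosomes it ran from 1.99% (chromosome 4, 13 beside 652) to 4.43% (chromosome 8, 25 beside 564). It was 3.02% on X, and Y had 0 beside 14. The spread was not tested.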
